A study of Drosophila melanogaster with 4 samples.

Results

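The 592 regions described here are closely spaced, mid-width stretches of H3K4me2 on the autosomal arms 2L, 3L and 3R of the fly. They were chosen from the 5559 regions of the list that the authors deposited for both replicates together, called the combined list. A region was taken if it was at least 2000 bp and under 10000 bp wide and lay fewer than 6000 bp from its neighbour on both sides. Regions starting at or beyond 21 Mb on 2L or 22 Mb on 3L, or ending at or before 1.5 Mb on 3R, were left out. The 592 make up 10.6% of the combined list and 26.0% of the 2280 regions of this width within the same limits. Of the other mid-width regions, 1033 had a close neighbour on 1 side and 655 were isolated, with at least 6000 bp free on both sides. Width, spacing and place thus chose the regions and are given as a description with no test.

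The samples were nuclei of heads sieved from adult Drosophila melanogaster of the wild-type strain Oregon-R (Oregon-R-modENCODE), labelled Mixed Adult and raised in population cages on a 22-day cycle. Chromatin fixed with formaldehyde was sheared and precipitated with an antibody to histone H3 dimethylated at lysine 4, and the DNA was sequenced (ChIP-seq). The 4 libraries were 2 H3K4me2 ChIP replicates and 2 input DNA replicates, with no treatment and no other genotype. The labels do not say that the replicates came from separate flies, so their spread may be technical. A head holds many cell types, and marking in fewer cells and weaker marking per cell cannot be told apart in such material. No gene names come with the regions, so the tissue was not checked against marker genes.

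Methyl groups on lysine 4 of histone H3 are placed in flies by the COMPASS family of enzymes, Set1, Trithorax and Trithorax-related. The dimethylated form is found in general at active and poised promoters, at the beginning of transcribed genes and at enhancers. The fly genome is compact, and many genes on the euchromatic arms lie close to their neighbours. Whether the spacing of the regions here follows that of genes was not tested.

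The regions called in these places were blocks a few kb wide, mostly parted by shorter gaps, as the rule sets. A gap is a stretch without a called region, and whether it lacks the mark was not measured. Marked sequence means sequence inside a called region. The 592 regions covered 2.78 Mb, which was 4.00% of the sequence within the limits and 18.3% of the sequence inside regions there. Their median width was 4302 bp (quartiles 2955 and 6072 bp), and 25.8% of them were under 3000 bp wide. The 947 gaps beside them had a median of 1709 bp (quartiles 777 and 3219 bp). Gaps under 500 bp made up 17.2% of these, and 35 gaps were under 100 bp, the smallest 1 bp. The widest gaps inside the limit were 5991 bp (beside 2 regions on 3R), 5989, 5943 and 5937 bp. Ranked by the wider of their 2 gaps, the nearest regions outside the limit had gaps of 6029, 6045, 6047, 6055 and 6057 bp. The smallest gap beside an isolated region was 6005 bp. The narrowest regions taken were 2013 bp wide and the widest 9943 bp, and the nearest regions left out with neighbours as close were 1995 and 10013 bp wide.

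The neighbours of closely spaced mid-width regions were of mid-width about as often as regions at large, in 75.3% of neighbouring places against 73.6% of all regions within the limits. Of the neighbouring places, 40.0% held another of the 592 regions and 35.3% a mid-width region with a close neighbour on 1 side. Narrower regions filled 12.7% of the places and regions of at least 10 kb filled 11.99%. Among all 3098 regions within the limits, narrower regions were 17.3% and those of at least 10 kb 9.07%. The most frequent setting, seen for 183 of the 592 (30.9%), was another member on 1 side and a mid-width region with no further close neighbour on the other. For 88 regions (14.9%) both neighbours were members, and for 8 both were at least 10 kb wide.

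Taken in order along an arm, the 592 regions formed 355 runs of consecutive members. A run of 1 region was the commonest form, with 206 of 355. The other 149 runs held 386 regions, or 65.2% of the members (exact 95% binomial interval 61.2 to 69.0%). Members of a run are linked by definition, so this interval may be too narrow. Of the 149 runs, 99 had 2 regions, 29 had 3, 11 had 4, 3 had 5 and 7 had 6, and none was longer. Runs of 2 or more spanned a median of 13.9 kb, and a median of 82.7% of that span was inside members. The 50 runs of 3 or more held 188 regions, or 31.8% of the members.

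**Figure D1:**
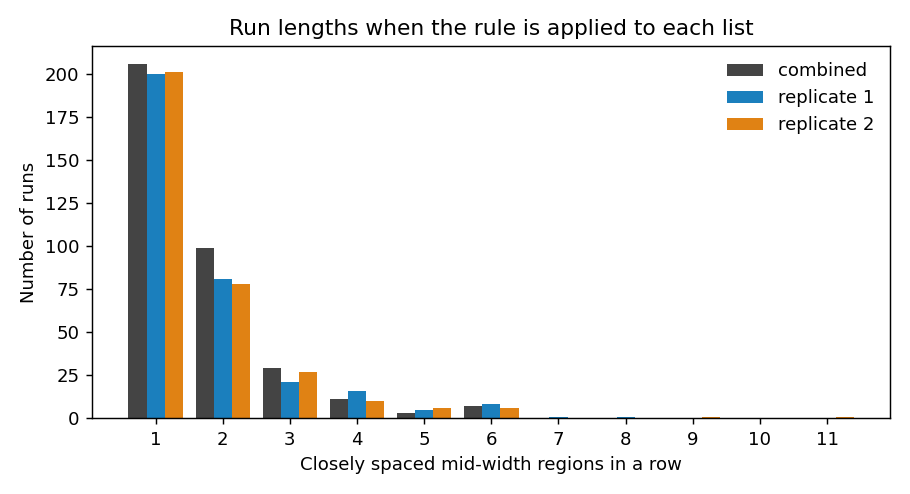
Number of runs (vertical axis) by the number of consecutive closely spaced mid-width regions in a run (horizontal axis), with the rule applied to the combined list and to each replicate list on its own. Runs of 1 region are the most frequent in each list (206, 200 and 201), and runs above 6 appear in the replicate lists only, at lengths of 7 and 8 in replicate 1 and of 9 and 11 in replicate 2.

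The longest run by span lay on 3L at 19785242 to 19833590 (FlyBase release 5, as for all positions). It held 6 regions over 48.3 kb, of which 73.0% was marked. The gaps inside it ran from 463 to 5511 bp. Its 6 regions differed in strength by the authors' score, a value per region that the sources used here do not define. The region at 19796266 to 19802888 had a score of 2.43 in replicate 1 and 2.26 in replicate 2, and its 2.33 in the combined list was the highest of all 592. The region at 19819992 to 19823154, in the same run, had scores of 1.12 and 1.01. The other 4 lay between these, from 1.49 to 2.15 in replicate 1 and from 1.36 to 1.98 in replicate 2. In this run high and low regions thus stood side by side in both replicates, and each of the 6 met the rule in each replicate list too. Over all 237 adjacent pairs of members, combined scores differed by a median of 0.41, against 0.48 for any pair on the same arm.

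The next run by span was on 3R at 8225764 to 8272930, with 6 regions over 47.2 kb and 84.6% of it marked. Its scores ran from 1.35 to 2.23 in replicate 1 and from 1.31 to 1.98 in replicate 2. The first and the last of its regions were among the weakest in both lists and the 4 between them were stronger. The run on 3L at 8955990 to 8994178 held 6 regions over 38.2 kb. Within it the region at 8970776 to 8973852 had scores of 0.997 and 0.932, against 1.52 or more in replicate 1 and 1.49 or more in replicate 2 for the other 5. This is again a weak block between stronger ones, 263 bp from a neighbour with scores of 2.08 and 1.94.

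The run on 3R at 5547898 to 5584244 spanned 36.3 kb and was 68.9% marked. Its weakest region, at 5554434 to 5556808, had scores of 0.714 in replicate 1 and 0.561 in replicate 2. Its strongest, at 5571106 to 5576142, had 2.14 and 1.97. The run on 2L at 11090638 to 11125592 was the most open of these 5, with 64.4% of its 34.955 kb marked. Its scores ran from 1.24 to 1.99 in replicate 1 and from 1.20 to 1.84 in replicate 2, a narrower range than in the 3R run. The other 2 runs of 6 were on 3R at 23754646 to 23788426 (33.8 kb) and on 3L at 7312346 to 7345660 (33.3 kb), named here after their values were seen. In all 7 runs of 6, each region was paired with exactly 1 region of each replicate that overlapped no other combined region.

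**Figure D2:**
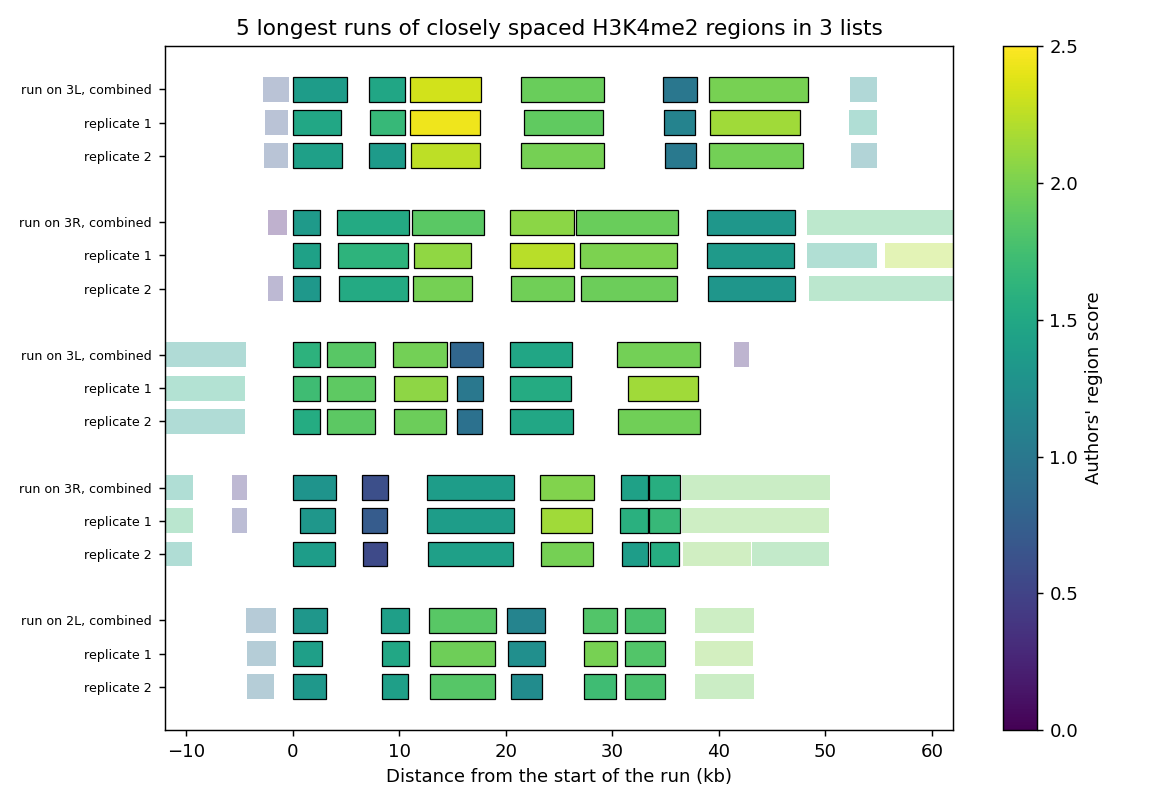
The 5 longest runs drawn to scale, with the distance from the start of the run in kb on the horizontal axis and 1 row per list. Outlined blocks are regions that overlap the run, coloured by the authors' score, and pale blocks are regions beside it. The outlined blocks recur in the same order and number in both replicates, and the pale ones do not in every run. Strong and weak blocks stand side by side within these 5 runs.

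Runs were parts of longer series in which regions of any width followed one another at under 6000 bp. With lone regions counted as series of 1, there were 1584 series within the limits. Of these, 886 had only 1 region and so could hold no member by the rule. At least 1 of the 592 regions lay in 310 series, and these had a median of 4 regions and 26.1 kb. The 2 series with the most regions are named after their values were seen. The first, on 3R at 5503068 to 5635504, had 18 regions over 132 kb, of which 14 were members, and it includes the 3R run of 36.3 kb above. The same stretch also held 18 regions in replicate 1 and 18 in replicate 2, with 14 meeting the rule in each. The 18 regions covered 65.8% of the stretch in the combined list, 62.7% in replicate 1 and 63.0% in replicate 2. Replicate 2 lacked the narrow region of 1355 bp at 5542252 to 5543606, which replicate 1 had with a score of 0.507, and so had a gap of 9429 bp there. It split the region of 13853 bp at 5584448 to 5598300 into 2 instead.

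The second series, on 2L at 10199102 to 10346442, was the longest by span, at 147 kb. It held 16 regions, of which 10 were members and 4 were at least 10 kb wide, so that mid-width blocks were mixed with broad domains. Each replicate had 17 regions there, with 12 meeting the rule in replicate 1 and 11 in replicate 2. Scores in replicate 1 ranged from 0.547 to 2.06 and in replicate 2 from 0.548 to 2.02. The weakest member, at 10295488 to 10297640, was missing from replicate 1 and had a score of 0.548 in replicate 2.

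The closely spaced regions were spread over the whole length of the arms, at 9.05 per Mb on 2L, 8.18 on 3L and 8.41 on 3R. They were 27.9% of the mid-width regions on 2L (exact 95% binomial interval 24.6 to 31.5%), 24.97% on 3L (21.8 to 28.3%) and 25.3% on 3R (22.4 to 28.3%), so the intervals of the arms overlapped. The arms held 190, 180 and 222 of them. Within an arm they were uneven. For this each arm was cut into 10 equal parts from the free (telomere) end. On 3L, part 3 held 4 members among 59 regions of any width (6.78%) and part 7 held 5 among 67 (7.46%). Part 10, on the centromere side, held 29 among 127 (22.8%) and part 1 held 28 among 106 (26.4%). On 2L the fullest was part 4 with 35 members among 138 regions, or 16.7 members per Mb. On 3R it was part 9 with 37 among 147, or 14.0 per Mb. With the arms added together, the parts held between 38 and 82 members, and members were 14.6 to 21.2% of the regions in a part. Neither the count nor the share showed a steady change from the free end to the centromere side.

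**Figure D3:**
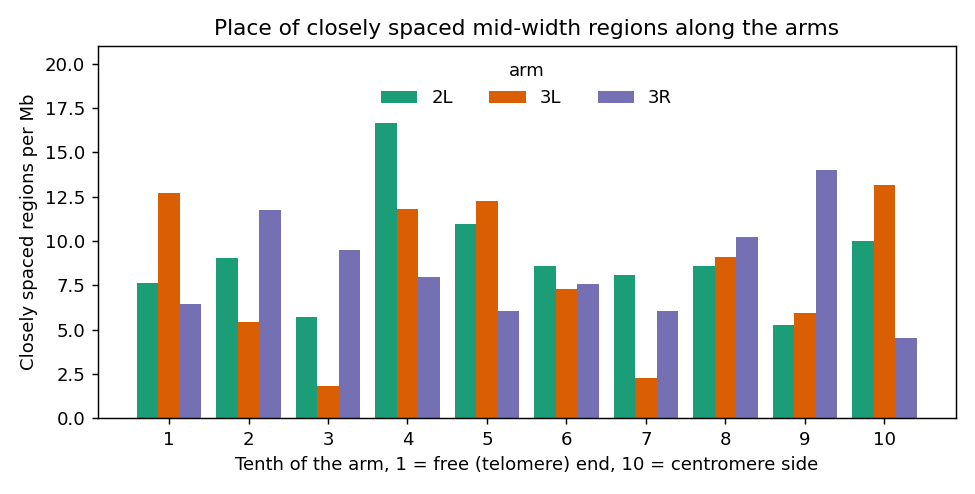
Closely spaced mid-width regions per Mb (vertical axis) in each of 10 equal parts of the arms 2L, 3L and 3R within the limits of the rule, counted from the free end (horizontal axis). Bars are counts in the combined list divided by length and carry no error. The number of all regions also differs between the parts and is not drawn. The fullest part differs between the arms (part 4 on 2L, part 10 on 3L and part 9 on 3R).

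In windows of 1 Mb the count of members ranged from 0 to 23 with a median of 8 over 68 full windows. The window on 3R from 5 to 6 Mb held 23 of them among 71 regions, and 21 were found in replicate 1 and 22 in replicate 2. The window on 3L from 8 to 9 Mb held 22 among 61 regions, found 22 and 21 times. The window on 2L from 10 to 11 Mb held 20 among 50, found 18 and 19 times. The first 2 of these windows each include a run of 6, and the window on 2L includes the series of 147 kb. The 10 fullest windows together held 28.5% of the members. Only the 2L window from 17 to 18 Mb held none, although 15 of its 21 regions were mid-width, 10 of them isolated. Windows with more regions held more members (Pearson's r = 0.76, Spearman's rho = 0.74 over 68 windows), a relation that the spacing limit builds in and that is given as a description.

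Nearly all closely spaced regions were found in each replicate list. Replicate 1 overlapped 574 of the 592 by at least 1 bp (97.0%, exact 95% binomial interval 95.2 to 98.2%), against 85.0% of all combined regions. Replicate 2 overlapped 579 (97.8%, interval 96.3 to 98.8%), against 86.5% of all combined regions. Both lists overlapped 568 of the 592 (95.9%), against 81.7% of all combined regions. The background takes in regions under 2000 bp, which were found less often, at 31.8% in replicate 1 and 35.6% in replicate 2 within the same limits. The combined list is named as a set of these same replicates, so recovery in them is no independent test of the regions.

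Recovery was lower than for isolated regions of the same width range, by a small amount. Isolated regions were found in 98.5% of cases in replicate 1 (interval 97.2 to 99.3%) and in 98.9% in replicate 2 (97.8 to 99.6%). The difference was -1.51 percentage points in replicate 1 and -1.13 in replicate 2, a mean of -1.32 ± 0.273 (SD, n = 2). The intervals of the groups overlapped in each replicate. The smallest two-sided p that an exact sign-flip permutation test over 2 replicates can give is 0.5, so no p is given for this difference. Counting only the higher-scoring 50% of each replicate list turned the difference round: 63.3% of members were then recovered (mean of the replicates), 27.8 percentage points more than of isolated regions. Members had the higher scores in both replicate lists, so such a limit on score favours them by construction.

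**Figure D4:**
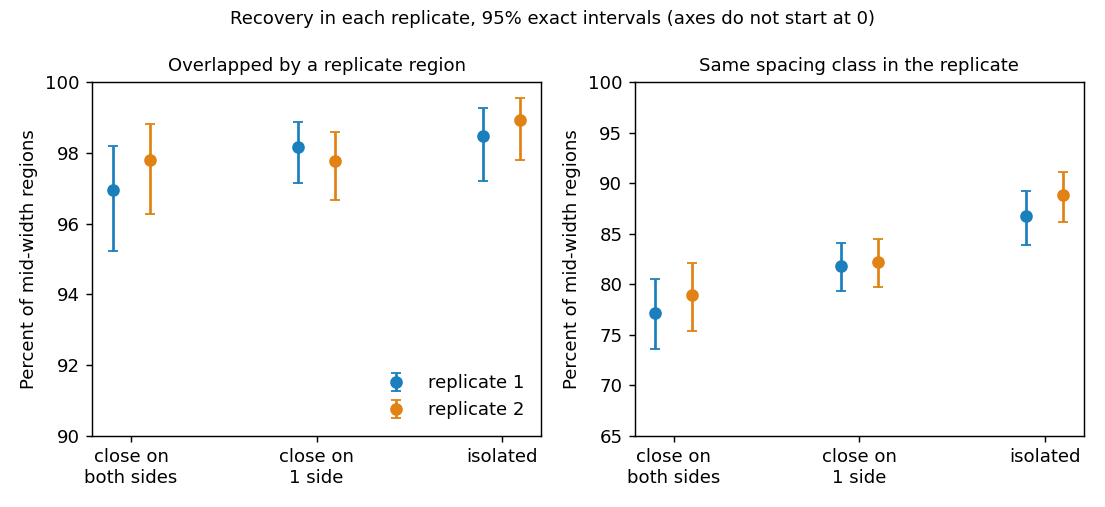
Percent of mid-width autosomal regions (vertical axes, which do not start at 0) that a replicate region overlapped (left) and that kept their spacing class in the replicate list (right), for regions with close neighbours on both sides, on 1 side or on neither. Points are the replicates and bars are exact 95% binomial intervals. Recovery lies between 97.0 and 98.9% in all 3 classes, while keeping the class ranges from 77.2 to 88.9%.

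The members that were missed were narrow and weak. Neither replicate overlapped 7 members (1.18%, against 10.2% of all combined regions and 0.153% of isolated ones). These 7 were 2013 to 3279 bp wide, with combined scores of 0.363 to 0.481. They lay on 2L at 9278502 to 9280654, on 3L at 1655244 to 1658080, 1010864 to 1013148, 16146634 to 16148692 and 20003556 to 20005568, and on 3R at 5859156 to 5861566 and 24907798 to 24911076. Beside each of them stood a wider region, of 3989 to 13433 bp, and on 3L at 20003556 that neighbour was 61 bp away. No comparison with other members of that width is given. A region of at least 10 kb stood beside 2 of the 7, and beside 127 of the 568 members found in both replicates. A further 6 members were found in replicate 1 alone and 11 in replicate 2 alone, again with low combined scores (medians 0.414 and 0.439). The 568 found in both were wider and stronger, with medians of 4429 bp and 1.46. Each of the 178 members with a combined score from 1.0 to under 1.5, and each of the 264 above that, was found in both replicates.

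Among regions with low scores, the share found in each replicate was lower for those with close neighbours than for isolated ones. Of the 52 members with a combined score under 0.5, replicate 1 overlapped 67.3% (exact 95% binomial interval 52.9 to 79.7%) and replicate 2 overlapped 76.9% (63.2 to 87.5%). Of the 78 isolated regions under 0.5, the shares were 89.7% (80.8 to 95.5%) and 92.3% (84.0 to 97.1%). The median widths of the groups were alike, at 2404 and 2277 bp. The intervals lay apart in replicate 1 and overlapped in replicate 2. These score bins were set after the values were seen, and the difference was not tested over samples.

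The 3 members with the lowest combined scores were each found in 1 replicate. The region on 2L at 16500340 to 16502658 (score 0.294) had no region in replicate 1 and one of 1982 bp with a score of 0.500 in replicate 2. The region on 3R at 24898688 to 24901214 (score 0.305) was likewise missing from replicate 1 and 1647 bp wide in replicate 2, with a score of 0.463. The region on 3R at 12076280 to 12078418 (score 0.349) was 1441 bp wide in replicate 1, with a score of 0.524, and missing from replicate 2. The strongest members were found at nearly full width in both. After the 3L region named above, these were 3R 23782180 to 23785826, with scores of 2.28 and 2.28 and widths of 3554 and 3600 bp, and 3R 20760792 to 20764740, with scores of 2.19 and 2.30 and widths of 3827 and 3845 bp. The first of these was one of a run of 6, with gaps of only 289 and 43 bp to its neighbours.

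The blocks stayed separate in the replicates. In replicate 1, 553 of the 592 (93.4%) were paired with exactly 1 region that overlapped no other combined region, against 78.2% of all combined regions. In replicate 2 there were 563 (95.1%), against 80.5%. Other mid-width regions were alike in this, at 94.0% and 95.4% of isolated regions and 93.4% and 93.6% of those close on 1 side. Replicate 1 split 20 members into 2 or more regions (3.38%, against 6.62% of all combined regions), and replicate 2 split 15 (2.53%, against 5.49%). Isolated regions were split in 4.43% and 3.51% of cases, and regions close on 1 side in 4.45% and 4.16%. Joining was rarer still. Of the 947 gaps beside members, 2 were bridged by 1 region in replicate 1 (0.211%, exact 95% binomial interval 0.0256 to 0.761%), against 0.319% of all gaps under 6000 bp. In replicate 2, 3 were bridged (0.317%, interval 0.0654 to 0.923%), against 0.603%. The bridged gaps were 5 to 19 bp wide, none was bridged in both replicates, and none of the 237 gaps between 2 members was bridged in either.

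The edges of the blocks lay slightly further in. Among paired members, 95.5% were narrower in replicate 1 than in the combined list and 95.2% in replicate 2, against 95.4% and 93.3% of all paired regions. The difference in width had a median of -149 bp (quartiles -345 and -68 bp, 553 pairs) in replicate 1 and of -164 bp (quartiles -347 and -78 bp, 563 pairs) in replicate 2. Both ends moved alike, the start by a median of 60 and 61 bp and the end by -59 and -55 bp. The gaps widened by as much: where both regions beside a gap were paired, it was wider in replicate 1 than in the combined list in 95.4% of 718 cases and in replicate 2 in 95.1% of 737, by medians of 161 and 155 bp. These shares were near those of all gaps under 6000 bp between paired regions, 95.5% and 93.1%, as were the shares of narrower regions. Between the replicates the gap differed by a median of 4.5 bp (replicate 2 minus replicate 1, quartiles -131 and 129 bp, 650 gaps).

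The spacing itself was kept less often than the regions. With the rule applied to each replicate list on its own, 457 of the 592 (77.2%, exact 95% binomial interval 73.6 to 80.5%) overlapped a region that met it in replicate 1. In replicate 2 there were 467 (78.9%, interval 75.4 to 82.1%). Of all 2280 mid-width regions, 82.0% kept their own spacing class in replicate 1 and 83.2% in replicate 2, and of the isolated regions 86.7% (interval 83.9 to 89.2%) and 88.9% (86.2 to 91.2%). The difference from isolated regions was -9.75 ± 0.317 percentage points (SD, n = 2). A member has to keep its width and a neighbour on both sides, whereas an isolated region stays isolated when a neighbour is lost, so the classes are not alike in what they need.

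Loss of a neighbour was the commonest way in which a member ceased to meet the rule. This was so for 68 members in replicate 1 and 67 in replicate 2. The missing neighbours were narrower than 2000 bp in 58 and 60 places. As neighbours of members, such narrow regions were found in 32.0% of places in replicate 1 and 38.7% in replicate 2. Broad regions beside members were found in 100% of places in each. In 27 and 29 cases the member itself was under 2000 bp in the replicate, in 22 and 16 a gap reached 6000 bp, and in 18 and 13 no region was found.

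Members of the longer runs met the rule more often than lone members, without a steady order by run length. Members that stood alone met it in 69.9% of 206 cases in replicate 1 and in 70.9% in replicate 2. In runs of 6, 39 of 42 members met it in each replicate (92.9%, exact 95% binomial interval 80.5 to 98.5%), and in runs of 5 all 15 did. The 42 members come from 7 runs and share neighbours, so this interval may be too narrow. Runs of 2 had 78.8% in replicate 1 and 79.8% in replicate 2, runs of 3 had 72.4 and 80.5%, and runs of 4 had 90.9 and 88.6%. In replicate 1 the runs of 3 were thus below the runs of 2, and no difference between run lengths was tested. Other members, the neighbours inside a run, were found in 98.3 and 98.5% of neighbouring places, against 32.0 and 38.7% for narrow ones, and the part of this in the shares was not tested. Of the 149 runs of 2 or more, 141 had every region recovered in replicate 1, 143 in replicate 2 and 139 in both.

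Applied to the replicates separately, the rule gave 577 regions in replicate 1 and 564 in replicate 2. Of the 577, 84.2% (exact 95% binomial interval 81.0 to 87.1%) overlapped one of the 564, and of the 564, 86.2% (83.0 to 88.9%) overlapped one of the 577. This comparison does not use the combined list. No such share is given for other mid-width regions, so the comparison does not show whether members differ from them. The longest run of replicate 2, with 11 regions over 73.5 kb on 3R at 5554516 to 5627984, lies in the 18-region series above. The longest of replicate 1, with 8 regions over 61.8 kb on 3R at 8230045 to 8291893, overlaps the 3R run of 47.2 kb.

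Closely spaced regions scored higher than isolated ones. The median combined score was 1.43 (quartiles 0.990 and 1.74) for members, 1.28 for mid-width regions close on 1 side and 0.970 (quartiles 0.651 and 1.40) for isolated regions. In replicate 1 the medians of paired regions were 1.54 for members and 1.08 for isolated regions, and in replicate 2 they were 1.46 and 1.03. The quartile ranges of members and isolated regions overlapped. Scores come from the same lists as the widths and gaps that chose the regions, so no test is given.

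Members were also wider, and score rose with width among them (Spearman's rho 0.50 over 592 regions, against 0.60 over 655 isolated regions), so the scores were compared within classes of width. Among paired regions, members had a higher median score than isolated regions in each of 4 classes and in each replicate. Over all regions, paired or not, the medians of the combined score differed by 0.23, 0.38, 0.36 and 0.30, from the narrowest class to the widest. The values that follow are for paired regions. At 2 to 3 kb the medians in replicate 1 were 1.01 for members and 0.747 for isolated regions, a difference of 0.26, which was also 0.26 in replicate 2. At 3 to 4 kb the difference was 0.39 in each replicate. At 4 to 6 kb it was 0.34 and 0.31, and at 6 to 10 kb it was 0.28 and 0.21. Differences from regions close on 1 side were smaller, at 0.15 in each replicate for 2 to 3 kb and 0.21 and 0.19 for 3 to 4 kb. They were 0.14 and 0.13 at 4 to 6 kb, and 0.08 and 0.10 at 6 to 10 kb. The share of members of 2 to 3 kb that was recovered lay below that of isolated regions of that width, at 90.8% (exact 95% binomial interval 85.1 to 94.9%) against 96.5% (93.5 to 98.4%) in replicate 1 and 92.8% (87.5 to 96.4%) against 97.3% (94.5 to 98.9%) in replicate 2. The intervals overlapped in both replicates, and the difference was not tested. Above 6000 bp each region of both classes was recovered in both replicates.

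**Figure D5:**
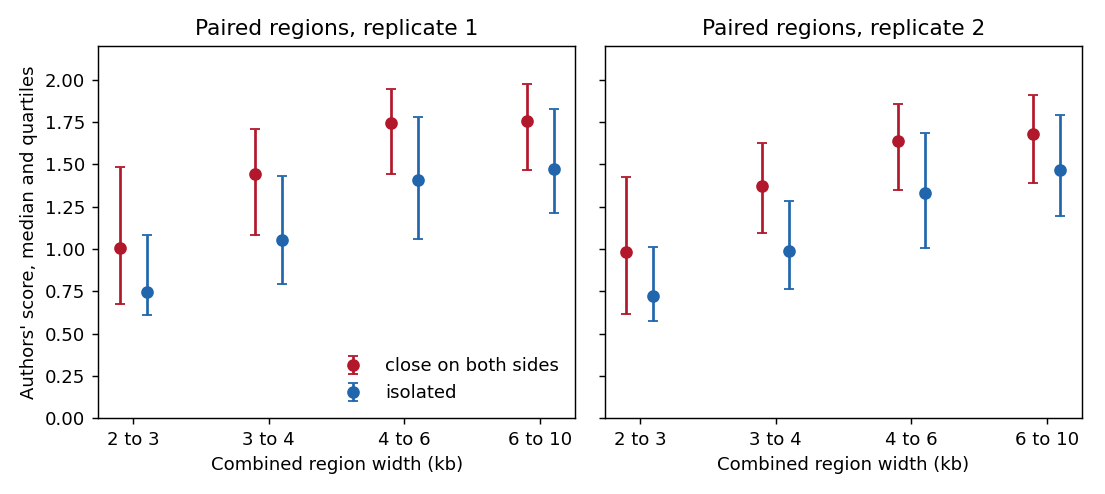
Authors' score (vertical axis) of closely spaced and isolated mid-width regions by combined width in kb (horizontal axis), for regions paired with exactly 1 region of replicate 1 (left) or replicate 2 (right). Points are medians and bars run from the lower to the upper quartile over regions. Members lie above isolated regions in each width class, by 0.21 to 0.39, and the quartile bars overlap.

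Scores of the same member were alike in the replicates, with a Pearson's r of 0.97 and a Spearman's rho of 0.97 over the 537 members paired in both, a description across regions of shared libraries. Replicate 2 scored lower in 71.7% of these (exact 95% binomial interval 67.7 to 75.5%), against 66.4% of all paired regions and 68.4% of isolated ones (64.6 to 72.1%). The median difference, replicate 2 minus replicate 1, was -0.07 for members (quartiles -0.14 and 0.01) and -0.05 for isolated regions. By arm it was -0.07 on 2L and -0.06 on both 3L and 3R, so the shift was much the same on each. Next to one another in a run, members differed by a median of 0.41 in combined score (237 adjacent pairs), against 0.48 for all pairs of members on the same arm. The combined scores of adjacent members were weakly correlated (Pearson's r 0.17, Spearman's rho 0.13). The values were 0.11 and 0.07 in replicate 1 (218 pairs) and 0.13 and 0.11 in replicate 2 (220 pairs). Adjacent pairs share members, and whether neighbours were more alike than other members was not tested.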

How the data were processed

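Each ChIP replicate, and the pair together, came as a list of enriched regions deposited by the authors on FlyBase release 5, per the file headers, with an undefined score for each region. Alignment software listed per the submitters' processing notes was Bowtie 0.12.7. Not given in the sources used here were the caller of regions, its threshold and how the replicates were combined. Read depth is unknown, so intervals on shares cover the count of regions only. Scores were used to describe and rank regions, and differences between them are given rather than folds. Every start and end in the combined list was an even number, against 24.5% and 24.7% of regions with both ends even in the replicate lists.

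Gaps are the bases between neighbouring regions of the list, of any width. A member counted as recovered where a replicate region overlapped it by at least 1 bp, and as paired where each overlapped only the other. Shares carry exact Clopper-Pearson 95% intervals, which treat regions as independent although neighbouring regions are not. Replicate means are given with SD over the 2 lists, and all else is description. The software was pandas 2.3.3, numpy 2.4.6, scipy 1.17.1 and matplotlib 3.10.9 under Python 3.11.15, and the code was tested on simulated lists with planted runs, losses and joins. The members and lists were chosen with earlier results of these data known. Regions named are the 5 longest runs (ties by span), the 3 highest-scoring and 3 lowest-scoring members, those in neither replicate, the gaps nearest the limit, and the 3 fullest and any empty windows of 1 Mb, unless said otherwise. Alternatives were other limits of gap and width, whole arms, higher-scoring regions, merging, and a stricter overlap. A release 5 genome or annotation was not used here, so regions carry no gene names or sequence. The input libraries entered no comparison.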

Additional observations from a re-analysis of the deposited data

How the results depend on the processing

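Of 58 values under alternatives, 31 moved by less than the spread between replicates, the interval or, for counts, 1.5 times. Leaving out 1 of 2 replicates always moves their mean by less than their SD, so those values count among the 31 by construction. Leaving out either replicate gave 97.0 to 97.8% recovered, a recovery difference from isolated regions of -1.51 to -1.13 percentage points, 0.211 to 0.317% of gaps bridged, 77.2 to 78.9% keeping the rule and a width difference of -164 to -149 bp. With a gap limit of 4000 bp, 56.5% of members were in runs of 2 or more, the recovery difference was -1.87 points, 0.356% of gaps were bridged and 70.7% kept the rule, and with 8000 bp 79.8% kept it. At widths of 3000 to under 8000 bp there were 389 members, with 46.8% in runs, 99.2% recovered, a difference of -0.628 points and 74.0% keeping the rule. With the higher-scoring 50% of the combined list there were 231 members, with 100% recovered, a difference of 0 points, 0.136% of gaps bridged and 95.9% keeping the rule. With regions under 1000 bp apart merged there were 307, with 51.1% in runs, 98.2% recovered, a difference of -0.197 points, 0.0952% of gaps bridged and 75.2% keeping the rule. A reciprocal overlap of 50% gave 95.4% recovered and a difference of -2.04 points. With the higher-scoring 50% of each replicate list, 63.3% were recovered and the difference turned to 27.8 points in favour of members, whose higher scores favour them under this limit. Alternatives added after the data were seen put it at -5.08 points for widths of 2 to 3 kb and at -0.557 for 3 to 10 kb. The longest run was 5 or 6 regions in each alternative run. The cause of these changes was not tested beyond what each setting removes. No paired analysis was possible because the 2 groups that share replicate numbers, ChIP and input, were not compared, and differences between classes of regions were taken within each replicate. The lists carry no read depth, and its effect on weak regions was not tested.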
